A study of Homo sapiens with 2 samples.

Results

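The 8 genes described here are the writers and erasers of cytosine methylation in DNA: the methyltransferases DNMT1, DNMT3A and DNMT3B, their relative DNMT3L, the maintenance factor UHRF1, and the dioxygenases TET1, TET2 and TET3. They were taken by symbol, with earlier results of these data known, and all 8 were found among the 22474 genes listed in both count tables. Single cells of H9, a human embryonic stem cell line, were profiled with Smart-seq2, which amplifies full-length cDNA of polyadenylated RNA. The ESC group held 16 cells of H9 in its embryonic stem cell state, and the ffEPSC group held 25 cells of feeder-free extended pluripotent stem cells that had been converted from H9. Both groups therefore share 1 line and 1 genetic background. The medium, the agents used for conversion and the passage were not given in the sources used here. Each state was 1 deposited sample, and cells of 1 sample are not replicates, so the states were not tested against each other. Differences are given as values with 95% intervals that cover counting error only.

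Methylation of cytosine at CG dinucleotides is copied to the new strand after replication by DNMT1, which UHRF1 brings to half-methylated sites. DNMT3A and DNMT3B place methyl groups on unmethylated DNA, and DNMT3L, which has no catalytic activity of its own, binds both and stimulates them. The TET enzymes oxidize methylated cytosine and so start its removal. Pluripotent cells are known for high levels of DNMT3B and TET1, and DNMT3L is known as a gene of germ cells and of early embryonic states. RNA was measured here, and neither protein nor DNA methylation was.

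Counts per cell ranged from 11714517 to 19965639 in ESCs and from 12507469 to 17811209 in ffEPSCs. Levels are given as CPM, counts scaled to a total of 1000000 gene counts, pooled over the cells of a state unless a single cell is named. The ratio used throughout is log2 of (ffEPSC CPM + 1) over (ESC CPM + 1), and its median over the 10825 genes with 5 CPM in at least 1 state was 0.04. All 10 pluripotency markers were at 1 CPM or more in both states, with a summed level of 3512 to 7776 CPM per ESC cell and 4653 to 7066 CPM per ffEPSC. Of the fibroblast or feeder markers, 5 of 8 were listed, and their sum per cell was 61.3 to 636 CPM in ESCs and 39.2 to 420 CPM in ffEPSCs. Most of that sum was THY1, which pluripotent cells also express, at 382 CPM in ESCs against 169 CPM in ffEPSCs. In 4 ESC cells POU5F1, a core pluripotency factor, lay at 63.5 to 218 CPM, against 496 to 1310 CPM in the other 12. These 4 were also the shallowest ESC cells, at 11714517 to 14683949 counts against at least 16349317 in the others. Over the 16 cells Spearman's rho of POU5F1 with the total count was 0.72, so low POU5F1 and low depth could not be told apart. Values that rest on those 4 cells are given with and without them. The first number in each cell's column name sorts the cells into sets, whose meaning is not given. Cells of both states occur in set 1 (7 ESC, 3 ffEPSC) and set 3 (9 ESC, 2 ffEPSC), while set 2 (9 cells) and set 4 (11 cells) hold ffEPSCs alone.

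For DNMT3L the cells of the states did not overlap, while those of the other 7 genes did. The margin was narrow, with 32 counts (1.80 CPM) in the lowest ffEPSC cell against 18 (1.101 CPM) in the highest ESC cell. Among the 8 genes, DNMT3L was the 1 at least 2-fold higher in ffEPSCs, where 8.3% of all measured genes were, and TET2 was the 1 at least 2-fold lower, where 5.84% were. The median ratio of the 8 genes was 0.24, with 5 above 0 and 3 below. Every ffEPSC cell lay above every ESC cell for DNMT3L, an order found for 0.102% of measured genes, and no member showed the opposite order, found for 0.111%. DNMT3A, DNMT3B and TET1, with ratios of 0.44 to 0.63, were already abundant in ESCs, and the ratio of TET3 was 0.04.

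**Figure D1:**
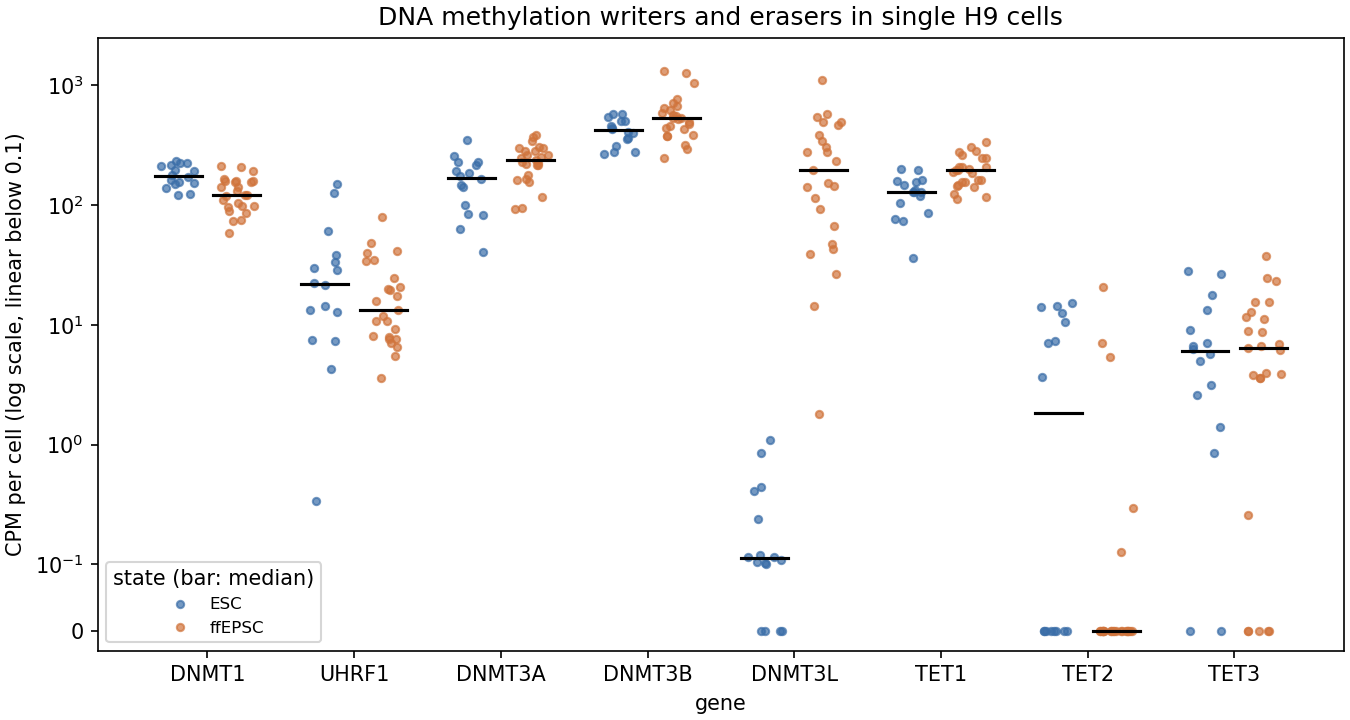
CPM of the 8 genes in each of the 16 ESC cells and 25 ffEPSC cells, on a log axis that is linear below 0.1 CPM, with the median of each state as a bar. DNMT3L is the only gene whose clouds do not overlap, and TET2 has no read in 20 of the 25 ffEPSC cells.

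CG dinucleotides are the substrate of these enzymes, and the promoters of the genes themselves differ in how many they hold. Promoter windows of 300 bases (250 before and 50 after a transcript start) were held in the RefSeq table (GRCh38.p14) for 7 of the 8 genes, in 18 windows. DNMT3L had no entry. TET1 and TET2 are printed, since they are the erasers with ratios of opposite sign, with each CG, the dinucleotide that carries the methyl mark, in capitals.
TET1, chr10:68560087-68560386, + strand: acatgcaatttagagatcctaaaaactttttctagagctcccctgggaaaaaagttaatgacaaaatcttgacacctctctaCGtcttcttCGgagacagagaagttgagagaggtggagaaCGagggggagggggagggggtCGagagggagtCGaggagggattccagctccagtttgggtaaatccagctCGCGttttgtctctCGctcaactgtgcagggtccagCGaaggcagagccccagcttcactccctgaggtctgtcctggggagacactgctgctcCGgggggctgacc
TET2, chr4:105145625-105145924, + strand: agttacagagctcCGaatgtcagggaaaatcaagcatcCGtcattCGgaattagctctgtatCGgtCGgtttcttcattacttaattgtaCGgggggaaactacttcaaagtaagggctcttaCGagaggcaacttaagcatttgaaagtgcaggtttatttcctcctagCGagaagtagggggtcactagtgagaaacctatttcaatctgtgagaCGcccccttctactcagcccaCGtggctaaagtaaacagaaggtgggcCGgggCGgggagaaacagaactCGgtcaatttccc
The TET1 window holds 10 CG and the TET2 window 13, against a median of 14 over all 35116 windows of the table. Further windows of both genes were in the table, among them a second TET2 start with 35 CG, while the UHRF1 windows held 36 to 46 CG and the DNMT1 window 30. The DNMT3A windows held 18 to 46 CG and those of TET3 33 and 45. The only DNMT3B window held 3, and like those of UHRF1 and DNMT1 it lies inside the gene's annotated span. Searched on both strands, GGGCGG (the GC box of SP and KLF factors) occurred once in the printed TET2 window and not in that of TET1, and was present in 44.95% of all windows. The second TET2 window held 5. GCCNNNGGC (TFAP2) and ATGCAAAT (the POU octamer) were in neither, and in 23.2% and 1.77% of all windows. The windows describe sequence alone, since methylation and binding were not analysed here.

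The maintenance pair was lower in ffEPSCs. DNMT1 (chromosome 19, 10133345 to 10231286, minus strand, GENCODE 29 on GRCh38), which copies methylation at replication, was at 122, 176 and 231.5 CPM in the lowest, median and highest ESC cell. The same 3 values were 58.9, 122 and 210.4 CPM in ffEPSCs. The ranges overlapped, but 12 of 25 ffEPSC cells lay below every ESC cell, 5 of 16 ESC cells lay above every ffEPSC cell, and 3 ffEPSC cells lay above the ESC median. Pooled, DNMT1 was at 178 CPM (176 to 179) in ESCs against 129 CPM (128 to 130.4) in ffEPSCs, a log2 ratio of -0.46. It was -0.33 within set 1 and -0.34 within set 3, and between sets of 1 state it was 0.43 (ESC set 3 over ESC set 1) and 0.27 (ffEPSC set 4 over ffEPSC set 2). The difference between the states was thus about as large as that between ESC sets. DNMT1 shares 83 exonic bases on the same strand with S1PR2, listed at 31.7 CPM in ESCs against 20.8 CPM in ffEPSCs.

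UHRF1 (chromosome 19, 4903080 to 4962154, plus strand) varied widely between cells. It was at 0.340, 22.03 and 149.5 CPM in the lowest, median and highest ESC cell, and at 3.63, 13.3 and 79.2 CPM in ffEPSCs. The ffEPSC cells lay wholly inside the ESC range, and the highest ESC cell alone held 28.3% of the ESC counts of the gene. Pooled, it was at 37.9 CPM in ESCs against 20.3 CPM in ffEPSCs, a log2 ratio of -0.87. Within sets the ratio was nearer 0, at -0.32 in set 1 and -0.12 in set 3. Leaving out the 4 ESC cells low in POU5F1 took it to -1.11, past 2-fold, since UHRF1 lay at 0.340 to 21.7 CPM in those 4 and at 7.53 to 149.5 CPM in the other 12. Among ESC cells, the coefficient of variation of UHRF1 was 1.203, above that of 99.2% of the 3830 genes with a mean within 2-fold of its own, whose median was 0.606. For DNMT1 it was 0.206, with 3.99% of its 1855 such genes lower, so the maintenance pair held one of the steadier and one of the more variable genes at its level. UHRF1 counts per 100 DNMT1 counts had a median of 13.9 (0.245 to 102) over ESC cells and 9.48 (3.59 to 66.6) over ffEPSC cells.

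DNMT3A and DNMT3B, the catalytic de novo enzymes, were both slightly higher in ffEPSCs. DNMT3A (chromosome 2, 25227855 to 25342590, minus strand) was at 40.5, 169.6 and 352 CPM in the lowest, median and highest ESC cell. In ffEPSCs these values were 92.3, 238 and 386 CPM. The states overlapped over most of their ranges, with 2 ffEPSC cells above every ESC cell and 4 ESC cells below every ffEPSC cell. Pooled levels were 174 CPM in ESCs against 237 CPM in ffEPSCs, a log2 ratio of 0.44. It was 0.27 within set 1 and -0.10 within set 3, so the sign was not the same in both sets. The 4 ESC cells low in POU5F1 were also the 4 lowest in DNMT3A, at 40.5 to 84.9 CPM against 99.8 to 352 CPM in the other 12. Without them the ratio was 0.24. Over the 16 ESC cells, which share 1 library, Spearman's rho of DNMT3A with POU5F1 was 0.83 and with the cell's total count 0.69. Over the 12 other cells the rho with POU5F1 was 0.61.

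DNMT3B (chromosome 20, 32762385 to 32809356, plus strand) was at 270, 421 and 582 CPM in the lowest, median and highest ESC cell. The ffEPSC cells reached from 246 CPM through a median of 533 to 1319 CPM. The groups overlapped, but 9 of 25 ffEPSC cells lay above every ESC cell. Pooled, DNMT3B was at 427 CPM in ESCs against 586 CPM in ffEPSCs, a log2 ratio of 0.46, and within sets the ratio was 0.60 and 0.41. Its spread between ffEPSC cells was wide for its level: the coefficient of variation was 0.461, above that of 97.7% of 568 genes of like mean, whose median was 0.221. In ESCs it was 0.252, with 24.1% of like genes lower.

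DNMT3B lies on 1 of the 5 chromosomes (5, 11, 14, 20 and 22) whose genes had a median ratio of 0.25 or more, and it was the only member on any of them. The 183 measured genes of chromosome 20 had a median of 0.35, so DNMT3B lay 0.11 above its chromosome, and 66 of the 183 lay higher still. Its 16 measured neighbours within 2 Mb on either side had a median of 0.41, with 6 above DNMT3B. In ffEPSCs with a mean shift of those chromosomes under 0.3 (7 cells) DNMT3B was at 508.6 CPM, a ratio of 0.25, and in the other 18 cells at 617 CPM, a ratio of 0.53. The medians over cells were 533.1 and 532.7 CPM, so the pooled levels differed while the typical cell did not, and the highest cells, up to 1319 CPM, were among the 18. The part of the chromosome shift in the ratio of DNMT3B was not tested.

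DNMT3L (chromosome 21, 44246339 to 44262216, minus strand) was close to undetected in ESCs. Its lowest, median and highest ESC cell stood at 0, 0.113 and 1.101 CPM, and 4 of 16 cells had no read, which for single cells of this depth allows up to 0.150 to 0.256 CPM. In ffEPSCs it was read in every cell, at 1.80, 196 and 1114 CPM. No cell of one state lay within the range of the other, although the lowest ffEPSC cell stood close to the highest ESC cell. Pooled, 58 ESC counts gave 0.219 CPM (0.166 to 0.282) and 97530 ffEPSC counts gave 261 CPM, a log2 ratio of 7.75. Without a pseudocount the log2 ratio was 10.22 (9.85 to 10.62), or 1193-fold. Its rank among the 10825 measured genes was the highest. Within sets the ratio was 8.57 in set 1 and 4.20 in set 3, whose 2 ffEPSC cells stood at 1.80 and 43.2 CPM. The pooled ffEPSC level was 459 CPM in set 1, 266 CPM in set 2, 21.6 CPM in set 3 and 253.5 CPM in set 4. An antisense gene, AP001059.1, overlaps 241 exonic bases of DNMT3L and was not among the listed names. Whether counting used strand is not given, so reads of these genes could not be told apart.

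Between ffEPSC cells DNMT3L was the most uneven of the abundant members. It was at 100 CPM or more in 17 of 25 cells and under 50 CPM in 6. Its coefficient of variation was 0.960, above that of 99.6% of 1349 genes of like mean, whose median was 0.285. The 6 cells under 50 CPM carried DNMT3A at 92.3 to 344 CPM and DNMT3B at 377 to 1261 CPM, so both enzymes were present in the cells poorest in DNMT3L.

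The share of DNMT3L in the summed counts of DNMT3L, DNMT3A and DNMT3B gives the balance of the de novo group in each cell. In ESC cells it was 0%, 0.0164% and 0.268% at the lowest, median and highest, and in ffEPSC cells 0.236%, 19.9% and 57.8%. The SD over cells was 0.0739 and 17.6 percentage points. The 2 ranges met only at their ends: the lowest ffEPSC cell, with an exact interval of 0.161 to 0.333%, could not be told apart from the highest ESC cell. That ESC cell was 1 of the 4 low in POU5F1. Among the other 12 the highest share was 0.150% (0.0891 to 0.237%), below the value of every ffEPSC cell. Its interval still overlapped that of the lowest ffEPSC cell, so these cells could not be told apart either. Of the 25 ffEPSC cells, 6 had a share under 5% and 8 under 10%, while DNMT3L outnumbered the sum of DNMT3A and DNMT3B in 1. Counts favour long transcripts, and DNMT3L has the shortest exon length of the group, so the share per kilobase of exon was higher, with a median of 0.0532% in ESC cells and 44.4% in ffEPSC cells. Per kilobase, DNMT3L exceeded DNMT3A in 22 of 25 ffEPSC cells and DNMT3B in 12 of 25. By set, the median share of counts in ffEPSCs was 19.9% (set 1), 22.6% (set 2), 2.98% (set 3) and 26.1% (set 4).

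**Figure D2:**
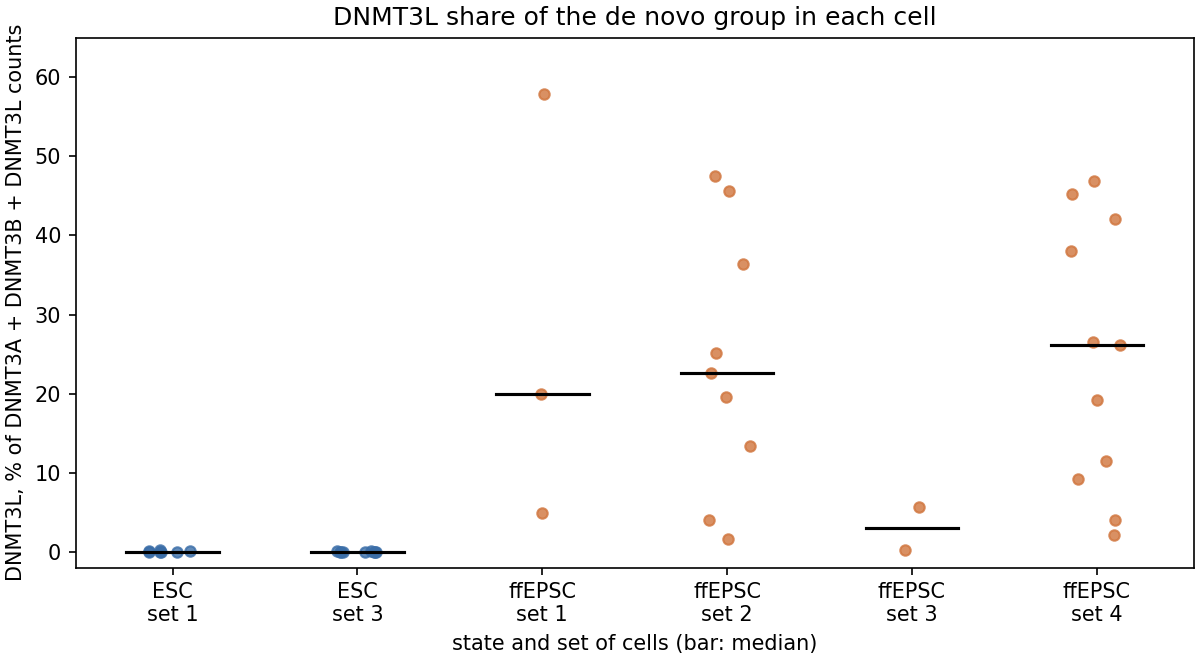
Share of DNMT3L in the counts of DNMT3A, DNMT3B and DNMT3L in each cell (vertical axis, %), by state and by the set number in the column names, with medians as bars. ESC cells lie between 0 and 0.268%, and ffEPSC cells between 0.236% and 57.8%, with the lowest ffEPSC cell in set 3.

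The catalytic partners varied far less than DNMT3L did. The sum of DNMT3A and DNMT3B was 316.5, 627 and 785 CPM in the lowest, median and highest ESC cell and 534, 743.1 and 1605 CPM in ffEPSC cells. DNMT3A made up 12.8%, 28.1% and 44.9% of that sum over ESC cells and 12.97%, 29.95% and 55.5% over ffEPSC cells. The split between the catalytic enzymes was therefore nearly the same in both states, and DNMT3A outnumbered DNMT3B in 1 of 25 ffEPSC cells and in none of the 16 ESC cells. Over the 25 ffEPSC cells, Spearman's rho of DNMT3L was -0.43 with DNMT1, -0.45 with UHRF1, -0.36 with DNMT3B and -0.01 with DNMT3A. These cells share 1 library, and the values are descriptions.

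Cells with little shift of the 5 chromosomes also had less DNMT3L. Their 7 values ran from 1.80 to 388 CPM with a median of 43.2, against 26.4 to 1114 CPM with a median of 255.8 in the other 18. The groups overlapped, yet 5 of the 7 and 1 of the 18 were under 50 CPM. Both ffEPSC cells of set 3, the set lowest in DNMT3L, were among the 7, and no cell of set 2 was. Shift and set were thus partly mixed. Within set 4 the cells with little shift stood at 14.25, 39.3, 340 and 388 CPM, and the others at 93.3 to 580 CPM. The median share in the de novo group was 4.85% in the 7 cells and 23.9% in the 18. Depth was alike, with a median of 14881256 and 14730525.5 counts per cell. Over all 25 cells the rho of DNMT3L with the mean shift was 0.23, and within the groups it was 0.32 and -0.29. DNMT3L itself lies on chromosome 21, whose median ratio was -0.10. The part of the shift in the level of DNMT3L was not tested.

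**Figure D3:**
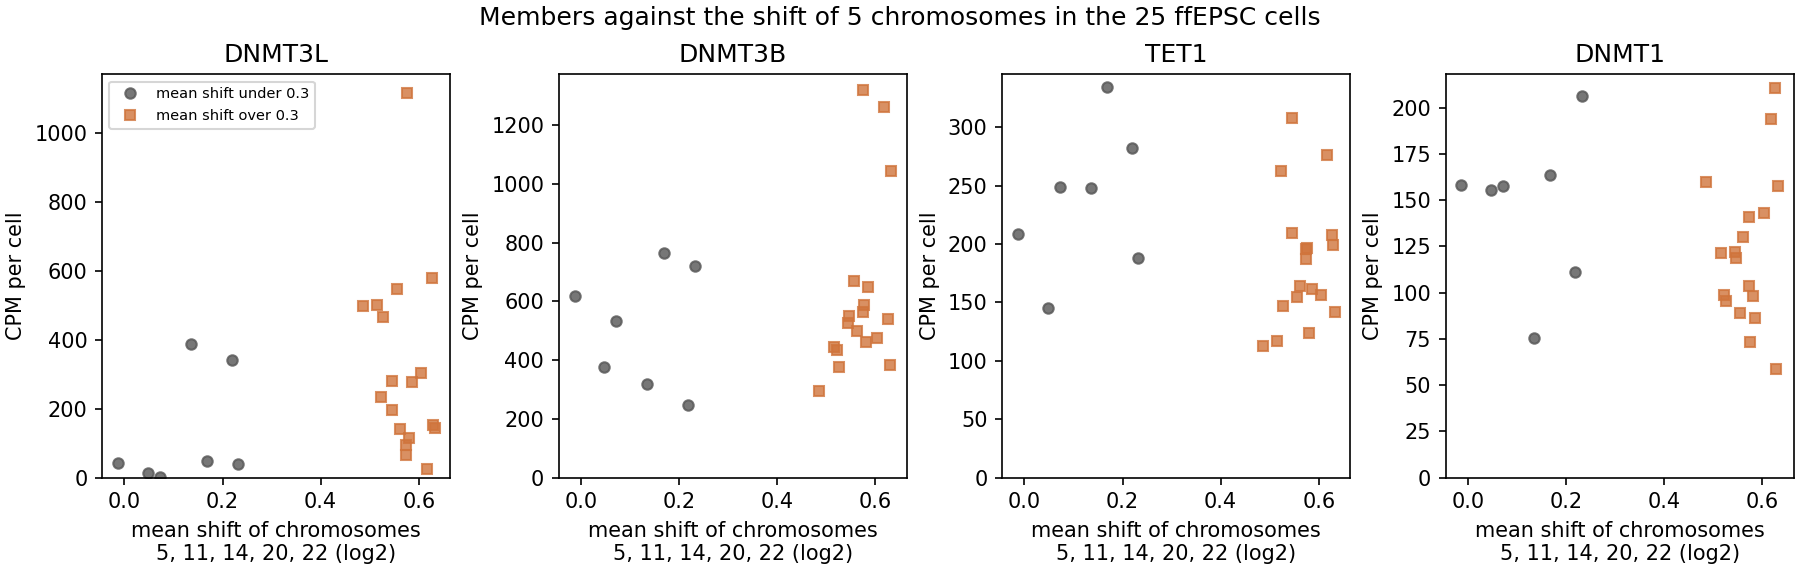
CPM of DNMT3L, DNMT3B, TET1 and DNMT1 (vertical axes) in the 25 ffEPSC cells against the mean log2 shift of the genes of chromosomes 5, 11, 14, 20 and 22. Of the 7 cells with a shift under 0.3, 5 lie under 50 CPM of DNMT3L, and the cells of both groups overlap for each of the 4 genes.

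Among the erasers, TET1 was higher in ffEPSCs, TET2 lower and TET3 at nearly the same level. TET1 (chromosome 10, 68560656 to 68694482, plus strand), which binds CG-rich DNA through its CXXC domain, was at 36.2, 129 and 199 CPM in the lowest, median and highest ESC cell. In ffEPSC cells it was at 112, 196 and 334 CPM. The ranges overlapped between 112 and 199 CPM, 11 of 25 ffEPSC cells lay above every ESC cell, and 22 lay above the ESC median. Pooled, TET1 was at 128 CPM in ESCs against 198 CPM in ffEPSCs, a log2 ratio of 0.63. It was 1.14 within set 1, past 2-fold, and 0.83 within set 3. Between sets of 1 state it was 0.04 in ESCs and 0.14 in ffEPSCs. In the 7 ffEPSC cells with little chromosome shift the ratio was 0.89, and in the 18 others 0.51.

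TET2 (chromosome 4, 105145875 to 105279816, plus strand), which lacks a CXXC domain of its own, had reads in 8 of the 16 ESC cells but in 5 of the 25 ffEPSC cells. It was at 0, 1.85 and 15.2 CPM in the lowest, median and highest ESC cell, and at 0, 0 and 20.8 CPM in ffEPSCs. At 1 CPM or more it was found in 8 of 16 ESC cells (50%, exact interval 24.7 to 75.3%) and in 3 of 25 ffEPSC cells (12%, 2.55 to 31.2%). Pooled levels were 5.27 CPM in ESCs against 1.32 CPM in ffEPSCs, a log2 ratio of -1.44. A single ffEPSC cell held 63.0% of the ffEPSC counts. The ratio was -0.19 within set 1, where ESC cells had 2.15 CPM, and -3.11 within set 3, where they had 7.64 CPM. ESC sets differed by 1.46, as much as the states did. In the 7 ffEPSC cells with little shift TET2 was at 3.67 CPM, a ratio of -0.43, and in the others at 0.388 CPM.

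TET3 (chromosome 2, 73986404 to 74108176, plus strand), known from the oocyte and zygote, was at 0, 6.02 and 28.1 CPM in the lowest, median and highest ESC cell. The ffEPSC values were 0, 6.36 and 37.3 CPM, over much the same range. At 1 CPM or more it was found in 13 of 16 ESC cells (81.2%, exact interval 54.3 to 95.9%) and 19 of 25 ffEPSC cells (76%, 54.9 to 90.6%). The pooled ratio was 0.04, and without a pseudocount its interval ran from -0.04 to 0.12 and held 0. TET1 took up a median of 90.3% of the reads of the 3 TET genes in ESC cells (64.5 to 100%) and 96.6% in ffEPSC cells (85.4 to 100%). Their sum was 41.3, 148 and 213 CPM in the lowest, median and highest ESC cell and 112, 203 and 351 CPM in ffEPSCs.

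**Figure D4:**
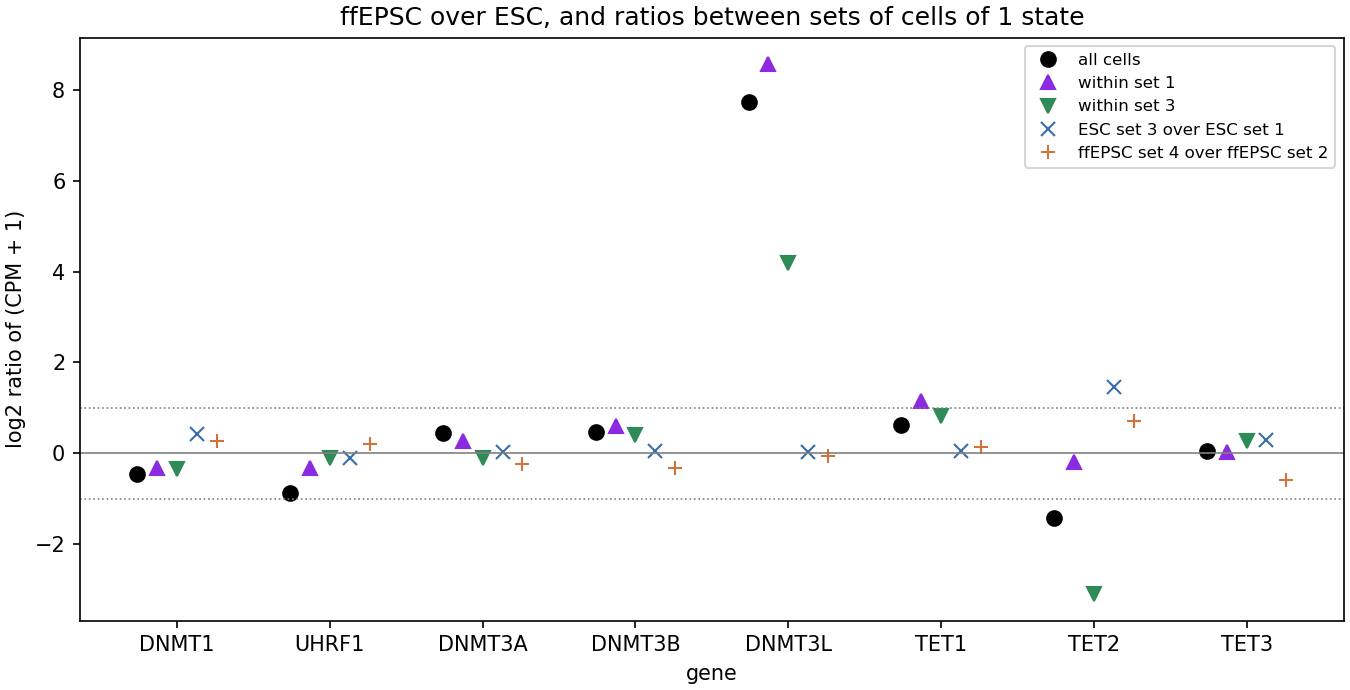
Log2 ratio of (CPM + 1) for each gene: ffEPSC over ESC from the full libraries and inside sets 1 and 3 alone, and 2 ratios between sets of cells of a single state. Dotted lines mark 2-fold; DNMT3L lies far above them in all 3 state ratios, and the TET2 ratio between ESC sets is 1.46.

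Set per kilobase of annotated exon, the order of the genes differed between the states at its top. In ESCs DNMT3B came first at 92.1 CPM per kb, above DNMT1 (18.15) in 16 of 16 cells. DNMT1 exceeded DNMT3A (14.5) in 12 cells, and DNMT3A exceeded TET1 (13.7) in 7, so these 2 could not be ordered. UHRF1 (7.36), TET3 (0.660), TET2 (0.320) and DNMT3L (0.118) followed, and TET2 was above DNMT3L in 8 of 16 cells. In ffEPSCs DNMT3L stood at 140.2 CPM per kb and DNMT3B at 126.6, with DNMT3L the higher in 12 of 25 cells. TET1 (21.3), DNMT3A (19.7), DNMT1 (13.2) and UHRF1 (3.95) came next, TET1 above DNMT3A in 15 of 25 cells and DNMT3A above DNMT1 in 20. TET3 (0.680) and TET2 (0.0798) were last. DNMT1 has 9.80 kb of exon over all transcripts and 5.46 kb over the basic set, and with the shorter length it was at 23.7 CPM per kb in ffEPSCs, above DNMT3A (22.1) and TET1.

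The partners of these enzymes were described from lists, whose measured genes reached 5 CPM in at least 1 state. Of 11 maintenance partners, which bring DNMT1 and UHRF1 to replicated DNA or keep them away, 1 had a ratio of 1 or more and 1 a ratio of -1 or less, with a median of -0.12. PCLAF, a PCNA-binding protein that helps to load DNMT1, was at 28.4, 69.9 and 159 CPM in the lowest, median and highest ESC cell and at 0, 2.11 and 50.7 CPM in ffEPSCs, a ratio of -3.28. DPPA3, which removes UHRF1 from chromatin and was named after its value was seen, was at 2.58 CPM in ESCs against 17.1 CPM in ffEPSCs, a ratio of 2.34. USP7 (0.72), a deubiquitinase that steadies DNMT1, and HDAC1 (0.62), a histone deacetylase that binds DNMT1, had higher levels in ffEPSCs, but HDAC1 was at -0.29 within set 3. ZBTB24 (-0.56), which activates CDCA7, had a lower one, but was at 0.47 within set 1. The median of the list was 0.32 within set 1 and -0.06 within set 3.

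Of 15 measured de novo partners, 1 was at least 2-fold higher, none at least 2-fold lower, and the median was -0.09. DPPA2, which guards promoters against de novo methylation in pluripotent cells, was at 0, 9.27 and 42.1 CPM in ESCs and 0, 56.6 and 206 CPM in ffEPSCs at the lowest, median and highest cell, a ratio of 2.24. Its ratio was 2.196 within set 1 and -0.45 within set 3, so the direction turned in the 2 ffEPSC cells of set 3. TRIM28 (0.42), a co-repressor of repeats, and the histone methyltransferases NSD1 (0.41) and NSD2 (-0.28, but 0.34 within set 1) stayed within 2-fold. The list's median within sets was 0.29 and 0.31.

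Of 15 measured demethylation partners, 1 was at least 2-fold higher and 1 lower, with a median of 0.03. CXXC5, which binds unmethylated CG, was at 1.91, 20.2 and 52.5 CPM in the lowest, median and highest ESC cell and at 26.5, 90.8 and 187 CPM in ffEPSCs, a ratio of 2.12. IDH2, which makes the cosubstrate of the TET enzymes, was at 15.5, 120.3 and 262 CPM in ESCs and 11.4, 60.1 and 127 CPM in ffEPSCs, a ratio of -1.22. The base excision repair genes POLB (-0.87) and LIG3 (-0.73) were lower and within 2-fold over all cells. They were at -1.36 and -1.51 within set 1, but at -0.35 and -0.52 within set 3. The ratio of IDH2 was -0.98 within set 1, just short of 2-fold, and -1.23 within set 3. Of 7 measured readers of methylated DNA, ZBTB4 was at least 2-fold higher (1.37, named after its value was seen), none was 2-fold lower, and the median was -0.17, with ZBTB33 at 0.70 (1.17 within set 3) and MBD1 at -0.16 (0.18 within set 1). ZBTB4 was at 1.81 within set 1 and -1.07 within set 3, and ESC sets differed by 1.67, so its direction was not the same in both sets. The 12 measured genes of methyl donor supply had a median of 0.29. By the naming rule, the folate cycle enzymes MTHFD2 (0.66, but 0.02 within set 1) and MTHFD1 (0.64) stood highest. AHCY (0.47, but 0.03 within set 3), which clears the product of methyl transfer, and MAT2B (0.38), a subunit of the methyl donor synthetase, came next. MTHFD1, AHCY and MAT2B lie on chromosomes 14, 20 and 5, whose medians were 0.30, 0.35 and 0.30. NSD1 (0.41) and CXXC5 (2.12), named above, also lie on chromosome 5. The part of the chromosome shift in the ratios of these genes was not tested. Across the other 4 lists, 4 genes were at least 2-fold higher and 2 lower of 48 measured, against the 8.3% and 5.84% of all genes given above.

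**Figure D5:**
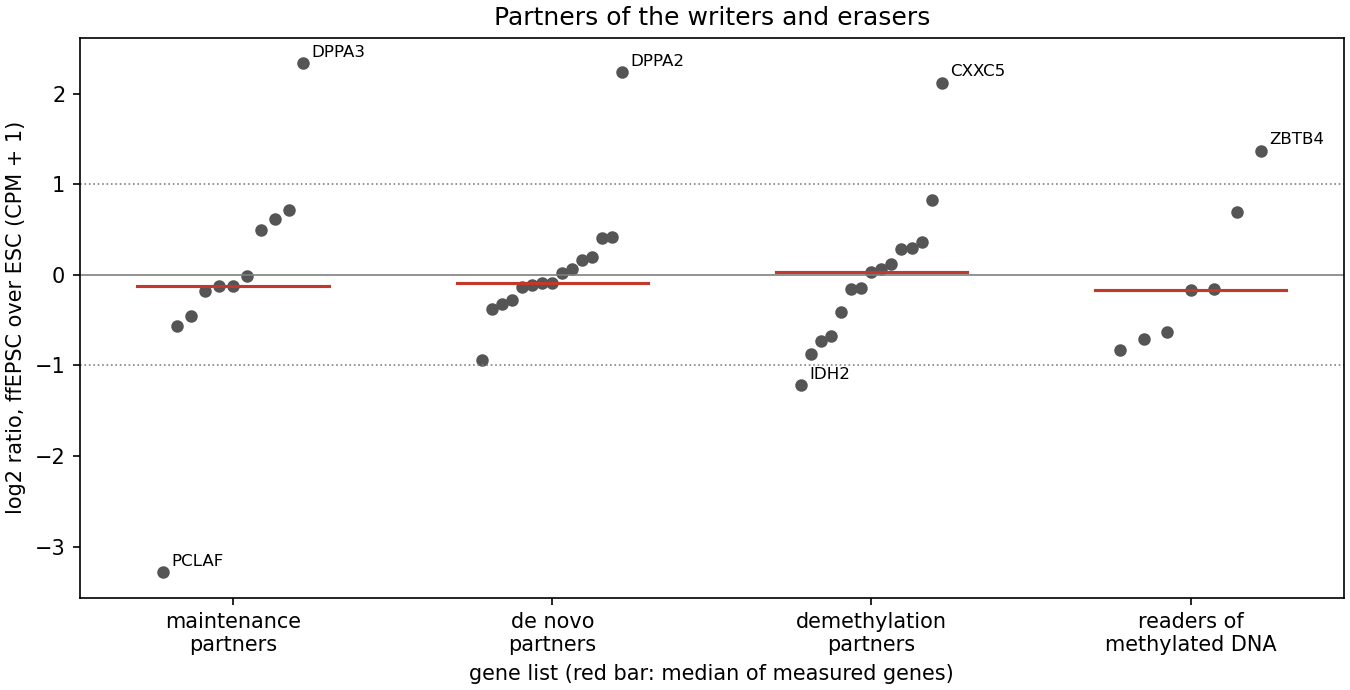
Log2 ratio, ffEPSC over ESC, of every measured gene of 4 partner lists (maintenance, de novo, demethylation and readers), with the list median as a red bar and 2-fold as dotted lines. Most genes lie within 2-fold, and the labelled genes are those past it.

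The genes most like DNMT3L over the 25 ffEPSC cells, among 6562 with a mean of at least 20 CPM, were FABP3 (Spearman's rho 0.79), NMRK2 (0.78), ARMT1 (0.77), NDUFV1 (0.76) and CPVL (0.75). Over the 16 ESC cells, where DNMT3L was near 0, their rho lay between -0.37 and 0.15. Between the states FABP3 was lower in ffEPSCs (log2 ratio -1.55), and the others were higher, at 0.65 to 1.8. Those most like DNMT3B were B4GALT5 (0.80), IGSF8 (0.73), SENP6 (0.71), HNRNPL (0.71) and TTLL12 (0.70), of which B4GALT5 lies on chromosome 20 as DNMT3B does. TTLL12 lies on chromosome 22, and NDUFV1 of the genes like DNMT3L on chromosome 11. Chromosomes 11, 20 and 22 are among the 5 described above, and the other named genes lie on none of the 5.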

How the data were processed

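Cells were grouped by the state their sample's label gives. Smart-seq2 libraries of polyadenylated RNA were prepared, per the labels' protocols, which also name a bulk RNA kit. The authors deposited whole-number counts per gene and cell, without normalization. The submitters' processing notes name GRCh38, featureCounts, Subread 2.0.6, SAMtools 1.6 and HISAT2 2.2.1. For annotation, strand setting and multiply mapping reads, the sources used here give nothing. The repeat tables were not used here. In the median cell 98.5% (ESC) and 98.4% (ffEPSC) of counts were even, so both reads of a pair were probably counted and counting intervals are too narrow. No cell name was shared between the libraries.

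Counts were scaled to 1000000 per cell, or per state after summing (265412149 and 374101290 counts). A pseudocount of 1 CPM was used. Levels have exact Poisson intervals, ratios exact conditional binomial and shares Clopper-Pearson intervals, at 95%. Reads were not tied to molecules, so intervals cover counting error only. Detection was also counted after thinning to 10000000 counts per cell. Exon lengths and positions came from GENCODE 29 (21289 listed genes matched) and promoters from RefSeq. The scripts ran in Python 3.11.15 with numpy 2.4.6, pandas 2.3.3 and scipy 1.17.1, and were tested on simulated data. Named genes were all 8 members, up to 4 per list with the largest ratio at 20 CPM or more in the higher state, and the 5 most like DNMT3L and DNMT3B. The members and lists were chosen with earlier results of these data known. Some results are not reported here. Alternatives were TMM scaling (edgeR 4.0.16), leaving out the 100 highest genes, other pseudocounts and floors, other pooling, other cells and single sets.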

Additional observations from a re-analysis of the deposited data

How the results depend on the processing

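The member ratios were recomputed under 11 alternatives each. DNMT3L kept its sign and stayed past 2-fold in all 11 (4.20 to 9.68). DNMT1 (-0.52 to -0.27), DNMT3B (0.25 to 0.60) and TET3 (0.00 to 0.28) kept their sign and stayed within 2-fold. UHRF1 ran from -1.11 to -0.12 and TET1 from 0.55 to 1.14, each past 2-fold in 1 alternative. DNMT3A ran from -0.10 to 0.51, with the same sign in 10 of 11. TET2 ran from -3.11 to -0.19 and was past 2-fold in 8. Members at least 2-fold higher numbered 2 within set 1, against 1 in all cells. Members at least 2-fold lower numbered 0 with a pseudocount of 5 CPM, 0 within set 1, 0 with only the ffEPSC cells of little chromosome shift, and 2 once the ESC cells with little POU5F1 were left out, against 1. The DNMT3L share of the de novo group in ESCs was 0.0532% per kilobase and 0.0364% from summed counts, and in ffEPSCs 44.4% per kilobase, 24.05% from summed counts and 2.98% within set 3. The median of maintenance partners was 0.32 within set 1. That of de novo partners was 0.29 within set 1 and 0.31 within set 3. That of demethylation partners was -0.14 with no floor, -0.056 with a floor of 20 CPM, -0.10 once the ESC cells with little POU5F1 were left out, and -0.026 within set 3. The cause was not tested. TMM scaling moved the median of all genes from 0.04 to -0.00. Set 3 holds 2 ffEPSC cells and set 1 holds 3, so values within sets rest on few cells. No paired analysis was possible because each state is 1 sample. Depth limits DNMT3L in ESCs, where 58 counts give the level, and thinning cut the ESC cells with a DNMT3L read from 12 to 10.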

Other observations

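Germline genes known to be silenced by promoter methylation in somatic cells were nearly absent from both states. Of the 20 genes on that list 10 were listed in the tables, and none reached 5 CPM in either state. The highest pooled level was SYCP1, a component of the synaptonemal complex, at 2.10 CPM in ESCs, with no read in ffEPSCs. SYCP3 was at 0.158 CPM in ESCs against 1.29 CPM in ffEPSCs, and DAZL, a germ cell RNA-binding protein, at 0.128 against 0.497 CPM. The median log2 ratio of the 10 listed genes was 0.20, over levels too low to compare.

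The DNMT3B neighbour with the highest ratio within 2 Mb stood at 2.17 and the lowest at -0.02. Over the 25 ffEPSC cells Spearman's rho of DNMT3B with the shift of chromosome 20 was 0.32, and over the 16 ESC cells 0.39. The highest rho between members in ffEPSCs was 0.56, between DNMT3B and TET3. In ESCs it was 0.64, between UHRF1 and DNMT3A, both of which also followed POU5F1 there (0.81 and 0.83). Over the 12 ESC cells not low in POU5F1, the rho with POU5F1 was 0.64 for UHRF1 and 0.61 for DNMT3A. With the cell's total count it was 0.42 and 0.69 over all 16 ESC cells.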
